A study of Mus musculus with 12 samples.

Results

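CpG islands are short stretches of the genome where CpG dinucleotides are packed densely, and in most cell types those at gene starts are kept free of DNA methylation. A minority of CpG-dense sequences is methylated, among them promoters of genes used only in germ cells, imprinted gene copies, and dense stretches inside exons. DNA methyltransferases copy methylation onto new DNA after replication, and 5-aza-2′-deoxycytidine (Aza) is built into DNA and traps these enzymes there, so that marks are lost as cells divide. CpG-dense tiles that were already methylated in untreated Pkd1 heterozygous mouse kidney cells were followed here through drug treatment. The autosomes were divided into tiles of 500 bp, and a tile was chosen when at least 20 of its CpGs were each covered by 5 reads or more in 2 PBS libraries or all 3, and the level pooled over PBS reads was 70% or more. The rule gave 3196 tiles holding 89007 CpGs, out of 560127 autosomal tiles with any such CpG and 12731 with 20 or more. The number rested on the PBS libraries, with 1385 tiles without PBS replicate 1, 2559 without replicate 2 and 1377 without replicate 3, where both remaining libraries had to cover each CpG. CpG-dense methylated tiles were thus 25.1% of all CpG-dense tiles.

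The cells, PKD1-Het, are proximal tubule cells of Pkd1 flox/-:TSLargeT mice at passage 3, with 1 Pkd1 allele flanked by loxP sites and the other deleted, and all groups shared this genotype and the large T antigen. DNA was read by reduced representation bisulfite sequencing (RRBS), in which MspI fragments are sequenced after bisulfite treatment and the methylation level is the percent of reads that kept a C. Each of 4 groups had 3 libraries after 24 h of treatment: PBS alone, 50 µM Aza, F-MTAza (Aza at 50 µM together with metformin at 300 µM and tolvaptan at 10 µM, all given free) and NP-MTAza (the same 3 drugs carried by DSPE-PEG micelles). Aza replicates 1 and 2 were left out, so Aza stands on replicate 3 alone, and the 6 libraries of F-MTAza and NP-MTAza are called the combination libraries. Nothing stated that replicates were separate cultures, so p-values measure only the spread between these libraries. No sorting or gating was described, and the labelled cell type was not checked by expression because only DNA was measured.

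The 10 libraries held 25336747 to 65817118 reads over their listed CpGs, with a median of 7 to 9 reads per CpG. The CpG-dense methylated tiles had a median of 148 to 552 reads per tile and library. At that depth the 95% Wilson interval of a typical tile ran from 62.5 to 77.1% in F-MTAza replicate 1 and from 59.4 to 70.2% in Aza replicate 3. These intervals cover counting error only. PBS replicate 2 stood apart at CpG-dense tiles under 10%, with a mean of 4.05% against 1.34 and 1.27% in the other PBS libraries.

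The sequences below show what these tiles look like. Each is a window of 200 bp on the plus strand of mm9, printed 5′ to 3′ with every CpG in capitals. The first comes from a tile among those with the highest levels left after the combination, inside an exon of Dact3 (chr7:17471020-17471219), a regulator of Wnt signalling. It holds 34 CpGs.
Dact3: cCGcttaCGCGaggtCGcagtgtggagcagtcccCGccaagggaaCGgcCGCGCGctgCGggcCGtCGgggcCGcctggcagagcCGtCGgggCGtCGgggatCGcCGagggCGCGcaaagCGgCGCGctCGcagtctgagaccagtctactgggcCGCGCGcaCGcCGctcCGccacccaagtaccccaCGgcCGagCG

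The next windows come from the tiles with the lowest levels left, in exons of Dync1i1 (chr6:5956031-5956230), an intermediate chain of cytoplasmic dynein, and Atp8b2 (chr3:89764552-89764751), a phospholipid-transporting ATPase. They hold 13 and 16 CpGs.
Dync1i1: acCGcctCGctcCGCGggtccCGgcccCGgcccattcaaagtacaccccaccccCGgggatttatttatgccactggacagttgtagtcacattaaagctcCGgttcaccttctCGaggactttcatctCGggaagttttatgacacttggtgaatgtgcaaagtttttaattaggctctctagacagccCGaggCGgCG
Atp8b2: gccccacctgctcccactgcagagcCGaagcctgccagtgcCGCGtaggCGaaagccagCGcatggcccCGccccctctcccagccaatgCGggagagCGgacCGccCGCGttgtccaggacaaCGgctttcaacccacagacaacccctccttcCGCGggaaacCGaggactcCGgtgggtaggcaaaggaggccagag

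The last 3 windows show a very dense exon, a germline promoter and a promoter of kidney development. They lie in an exon of Cacna1a (chr8:87083107-87083306), the pore subunit of P/Q-type calcium channels, in the promoter of Dazl (chr17:50432526-50432725), an RNA-binding protein of germ cells, and near the start of Wt1 (chr2:104967158-104967357), a transcription factor of kidney development. They hold 37, 11 and 34 CpGs.
Cacna1a: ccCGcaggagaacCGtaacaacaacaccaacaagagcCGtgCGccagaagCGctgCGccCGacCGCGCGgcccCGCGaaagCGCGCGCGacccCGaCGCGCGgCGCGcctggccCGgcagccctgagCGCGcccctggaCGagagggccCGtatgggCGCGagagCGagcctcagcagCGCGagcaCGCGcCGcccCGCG
Dazl: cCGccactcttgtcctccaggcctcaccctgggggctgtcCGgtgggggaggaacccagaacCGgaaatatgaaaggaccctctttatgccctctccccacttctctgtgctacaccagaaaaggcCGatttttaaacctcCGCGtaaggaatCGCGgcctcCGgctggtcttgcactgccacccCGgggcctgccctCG
Wt1: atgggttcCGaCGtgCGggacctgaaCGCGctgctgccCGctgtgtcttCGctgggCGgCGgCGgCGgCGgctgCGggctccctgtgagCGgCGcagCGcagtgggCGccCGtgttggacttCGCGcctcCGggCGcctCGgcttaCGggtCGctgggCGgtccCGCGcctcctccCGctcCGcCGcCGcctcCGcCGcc

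The windows differed in level as well as in letters. Over the CpGs listed in the window, the Dact3 stretch was at 98.5% in PBS, 92.8% in F-MTAza, 91.0% in NP-MTAza and 83.1% in Aza replicate 3. This was the densest stretch of those taken from the extremes. In the sparser Dync1i1 stretch the levels were 65.2, 44.3, 30.5 and 46.5% in the same order, and in that of Atp8b2 they were 70.2, 44.3, 35.4 and 29.7%. The Dync1i1 stretch included CpGs that were almost unmethylated in PBS, at 2.22 and 6.41%. The shallowest library had 46 reads in the Dync1i1 stretch and 25 in that of Atp8b2. These 3 windows were taken from the extremes of the combination level, so their order is a description.

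The pooled PBS level of the chosen tiles had a median of 90.3%. It lay between 70 and 80% in 630 tiles, between 80 and 90% in 931 and at 90% or more in 1635. The number of CpGs per tile ran from 20 to 74 with a median of 25. A tile had a value in a library when at least 5 of its CpGs were listed there, and 2394 tiles had one in all 10 libraries. The other 802 lacked at least 1 value and enter only where stated. No tile was without any value.

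Treated cells held less methylation at these tiles in every library. Each tile counted once, the mean over the 2394 tiles was 88.1, 89.2 and 88.1% in PBS replicates 1 to 3 (88.5% ± 0.643, SD, n = 3). It was 69.1, 68.9 and 69.5% in F-MTAza (69.1% ± 0.287, SD, n = 3), 66.7, 66.5 and 64.9% in NP-MTAza (66.0% ± 0.979, SD, n = 3) and 64.7% in Aza replicate 3. The 6 combination libraries averaged 67.6%, a difference of -20.9 points from PBS, and no combination library reached a PBS library. Since the rule used PBS, this difference is a description. With the tiles chosen again from 2 PBS libraries and read in the third, the difference from the left-out PBS replicate 1, 2 and 3 was -19.2, -21.3 and -19 points. Including tiles with a value in at least 2 libraries of a group, the means were 88.4% over 3196 tiles in PBS, 69.2% over 3071 in F-MTAza and 66.1% over 3171 in NP-MTAza.

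**Figure D1:**
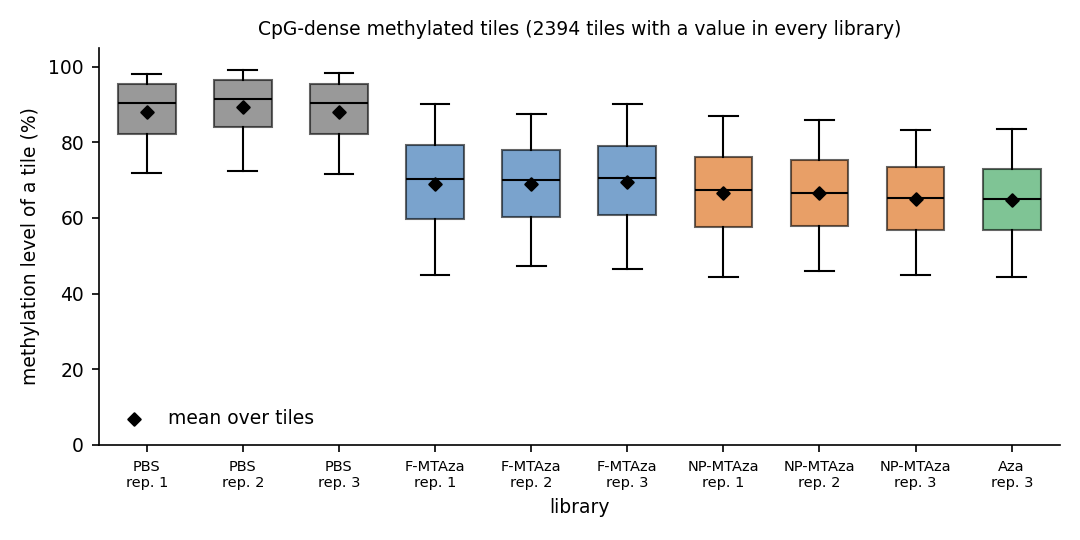
Methylation level (%) of the 2394 CpG-dense methylated tiles with a value in every library, with 1 box per library from the percentile 25 to 75 of tiles, a line at the median, whiskers to the percentiles 5 and 95, and a diamond at the mean. The PBS libraries sit at means of 88.1 to 89.2%, the F-MTAza libraries at 68.9 to 69.5%, the NP-MTAza libraries at 64.9 to 66.7% and Aza replicate 3 at 64.7%.

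Levels spread into an intermediate range, and no tile had a combination mean under 38.7%. The share of tiles at 70% or more was 96.8 to 97.2% in the PBS libraries, 49.8 to 51.8% in F-MTAza, 34.6 to 41.7% in NP-MTAza and 33.5% in Aza replicate 3. The mean level over the combination libraries had a median of 68.2% across tiles, with 5% of tiles under 51.8% and 5% over 82.2%. Its highest value was 93.2%. A total of 80 tiles were under 50%, and 222 stayed at 80% or more. Treated replicates spread more, with a median SD per tile of 2.04 points in PBS, 7.57 in F-MTAza and 7.07 in NP-MTAza. Counting error also differed, since the tiles were chosen for PBS levels near the top of the scale and depth varied. The 95% Wilson interval of a typical tile was 87.1 to 93.0% in PBS replicate 1 and 62.5 to 77.1% in F-MTAza replicate 1. The part of counting error in the spread was not tested.

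Each tile was tested with limma, fitted over all 37154 autosomal tiles with 5 or more CpGs and a value in all 10 libraries, on the arcsine square root of the level. A call needed a Benjamini-Hochberg adjusted p under 0.05 and a difference of 10 points or more. Against PBS, 2199 of the 2394 tiles were called lower in the combination and 0 higher. The share called lower over all tiles tested was 69.2% and the share called higher 0%. The rule used PBS, so the count is given beside that background only. Every combination library lay under every PBS library at 1914 of the 2394 tiles (79.9%), against 63.8% of all tiles tested. Of the 37154 tiles behind both backgrounds, 21183 were at 70% or more in pooled PBS, and the rest had less methylation to lose. Methylated tiles with 10 to 19 and 5 to 9 CpGs differed from PBS by -28.1 and -30.4 points on average, against -20.9 for the CpG-dense ones.

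CpG-dense tiles kept a larger part of their methylation than CpG-poor ones. To compare tiles of different starting level, the mean level of a class in a library was expressed as a percent of its mean PBS level, here called the retained share. CpG-dense methylated tiles retained 76.4% over the 6 combination libraries, ranging from 73.3 to 78.5%, and 73.1% in Aza replicate 3. Tiles with 5 to 9 CpGs that passed the same 70% threshold retained 66.0% (63.5 to 67.8%), and 63.1% in Aza replicate 3. The difference of 10.4 points was present in 6 of 6 combination libraries, between 9.65 and 11.5 points (exact sign-flip permutation test over libraries, two-sided p = 0.031, the smallest that 6 libraries allow, Benjamini-Hochberg adjusted p = 0.0417 over 4 tests). In Aza replicate 3 it was 10.0 points. The rule used PBS and the share is taken of PBS, so both classes were also chosen from 2 PBS libraries and set against the third, which gave 11.1, 10.3 and 11.4 points with PBS replicate 1, 2 and 3 left out (p = 0.031 in each, the same exact permutation test). With reads pooled over tiles the difference was 2.71 points. It was 10.9 points without the tiles of over 50 PBS reads per CpG in either class, which were 14 tiles in the dense class. Mean PBS levels of both classes were close, at 88.5 and 89.3%, and the mean levels after the combination were 67.6 and 58.9%. Values in every library were present for 2394 of the 3196 dense tiles but for 8912 of the 75846 CpG-poor tiles.

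Within the CpG-dense tiles the retained share kept climbing with CpG number. It was 73.7% over 1080 tiles with 20 to 24 CpGs, 76.3% over 507 with 25 to 29, 79.1% over 510 with 30 to 39 and 81.7% over 297 with 40 or more. Below the threshold of the rule it was 66.0% with 5 to 9 CpGs, 67.9% with 10 to 14 and 70.4% with 15 to 19. Tiles with 30 or more CpGs retained 80.04%, which is 6.39 points more than tiles with 20 to 24 (5.53 to 6.89 points, 6 of 6 libraries, the same exact permutation test, p = 0.031, adjusted p = 0.0417), and 6.88 points more in Aza replicate 3. With the classes chosen in 2 PBS libraries and set against the third, it was 5.44, 5.77 and 5.23 points (the same exact permutation test, p = 0.031 in each). The PBS means of these bins lay between 88.0 and 89.3%, and their median PBS depth fell from 21 reads per CpG with 5 to 9 CpGs to 14.2 with 40 or more. The part of depth in the gradient across all bins was not tested. Within the dense bins the median depth was 14.1 to 14.6 reads per CpG.

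**Figure D2:**
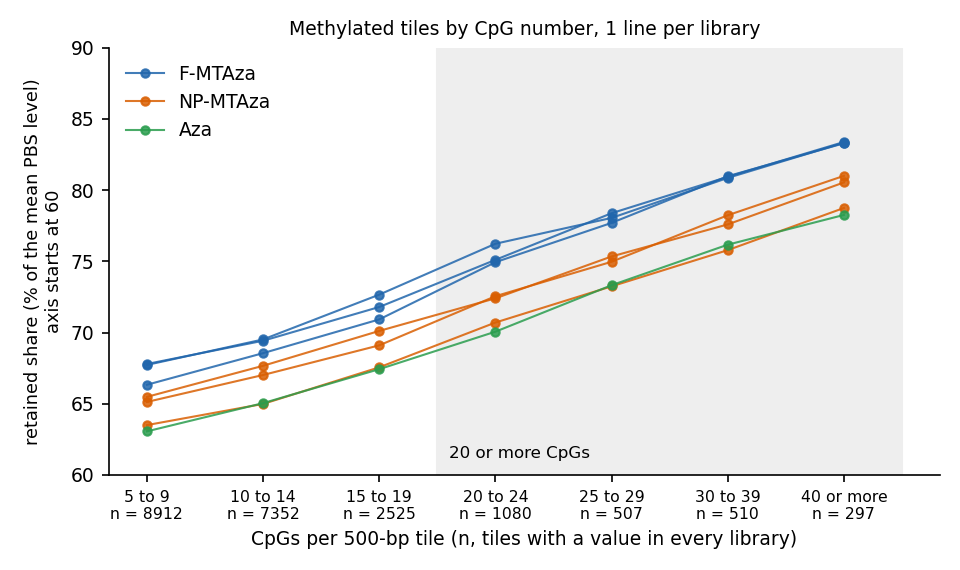
Retained share (mean level of a library as % of the mean PBS level, axis starting at 60) of methylated tiles against the number of CpGs per 500-bp tile, with 1 line per library and grey behind the bins of 20 or more CpGs. Every line climbs from the bin of 5 to 9 CpGs, at 66.0% on average over the combination libraries, to that of 40 or more, at 81.7%.

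The gradient held at each starting level. Among tiles at 70 to 80% in PBS, the retained share was 64.02% with 5 to 9 CpGs, 73.0% with 20 to 24 and 77.5% with 30 or more. Among tiles at 80 to 90% it was 65.2, 73.5 and 79.4%, and among tiles at 90% or more it was 66.8, 73.9 and 81.2%. More CpGs did not go with a higher level at the outset. Across the 2394 tiles, CpG number had a Spearman correlation of 0.257 with the combination level and -0.0247 with the PBS level, values that describe tiles sharing the same libraries.

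The same order appeared at the scale of single CpGs. Among 22275 CpGs of these tiles that were listed in all 10 libraries, those with 0 to 1 other CpGs within 25 bp retained 70.2% over the combination libraries. Those with 2 to 3 neighbours retained 74.1%, those with 4 to 5 retained 77.9%, and those with 6 or more retained 81.9%. The isolated CpGs also started lower, at 84.4% in PBS against 90.5% for the most crowded. By flanking base, CpGs within GCGC (3484 CpGs) retained 79.2% and those within CCGC (6329 CpGs) 78.7%, while those within ACGA (1396 CpGs) retained 74.8%. CpGs inside CCGG, the MspI cutting site, retained 71.5%, but they were few (487), started at 80.2% and lie at fragment ends. Neighbour number and flanking bases change together in these sequences, and their parts were not told apart.

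Base composition followed the same direction. Tiles with a GC content at or under 58.8% (679 tiles) retained 73.3% and those over 68.2% (524 tiles) retained 81.4%. The 222 tiles that stayed at 80% or more had a median of 33 CpGs, a median GC content of 68.5% and a mean PBS level of 95.7%. The 80 tiles under 50% had medians of 24 CpGs and 62.8% GC and a mean PBS level of 76.0%. PBS read depth per CpG showed almost no relation with the level left, with a Spearman correlation of -0.00632 across tiles. Depth in the treated libraries was not set against it.

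Unlike unmethylated CpG-dense sequence, these tiles lay mostly outside promoters. Exons held 1382 of the 3196 tiles (43.2%), promoters (2000 bp upstream to 500 bp downstream of the start of a protein-coding gene) 1091 (34.1%), intergenic sequence 482 (15.1%) and introns 241 (7.54%). For methylated tiles with 10 to 19 and 5 to 9 CpGs the promoter share was lower still, at 9.16 and 4.70%. It was 57.9% for CpG-dense tiles at 10 to 70% in PBS. Of the 7055 CpG-dense tiles under 10% in PBS, 81.9% were promoter tiles. The median distance to the nearest start was 2778 bp against 283.5 bp, and the median ratio of observed to expected CpGs was 0.758 against 0.858, with GC content at 63.2 and 65.6%. Tiles mostly stood alone: 2089 had no adjacent member, 358 pairs and 117 longer runs made up the rest, and 9 tiles bordered a CpG-dense tile under 10%. The longest run, of 6 tiles, covered the promoter and the beginning of Tmem132e (chr11:82200500-82203499), which encodes a transmembrane protein. Its tiles stood at 90.7 to 98.0% in pooled PBS, 72.0 to 81.7% in F-MTAza, 65.5 to 77.9% in NP-MTAza and 68.9 to 85.5% in Aza replicate 3.

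Promoter tiles started lower than the others and ended at a similar level, so that their share of the PBS level was slightly higher. They retained 78.6% against 75.4% elsewhere, a difference of 3.19 points seen in 6 of 6 combination libraries (2.49 to 3.65 points, the same exact permutation test, p = 0.031, adjusted p = 0.0417), and of 3.28 points in Aza replicate 3. With the tiles chosen in 2 PBS libraries and set against the third, it was 2.95, 2.74 and 2.86 points (the same exact permutation test, p = 0.031 in each). In each of these tests all 6 libraries were divided by the same PBS means, and the classes differed mainly in PBS. The agreement of the 6 libraries thus largely repeats the same PBS difference, which these p-values do not test. The order of promoter and other tiles turned when reads were pooled over tiles (-4.77 points). The difference was 3.15 points when those 14 tiles were left out of the pool. Exon, intron and intergenic tiles retained 75.4, 74.99 and 75.4%. The promoter tiles stood at 86.3% in PBS against 90.5% in exons, and reached 67.8% in the combination against 68.2% in exons, and the difference in share was thus not one of higher levels after treatment. They also held more CpGs, with a median of 27 against 25 in exons. With 20 to 24 CpGs promoter tiles retained 76.1% and exon tiles 72.6%, while with 30 or more the values were 80.7 and 79.6%.

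**Figure D3:**
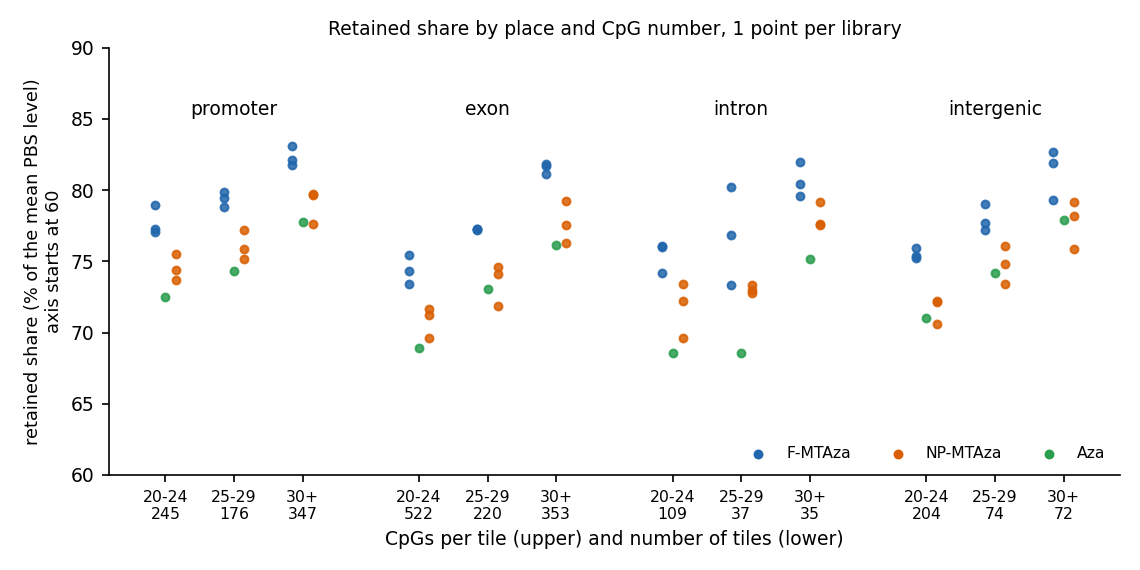
Retained share (% of the mean PBS level, axis starting at 60) of CpG-dense methylated tiles by place in the gene and CpG number, with 1 point per library. Blue points are F-MTAza, orange NP-MTAza and green Aza replicate 3. The averages climb with CpG number in each place, from 76.1 to 80.7% in promoters and from 72.6 to 79.6% in exons on average over the combination libraries.

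Repeated sequence made up a small part. In 104 tiles over 50% of the sampled words of 24 bases had 10 or more copies in the genome, and these tiles retained 76.3% against 76.4% for the others. Read depth was uneven in 15 tiles with over 50 PBS reads per CpG. The deepest, at Gm10801 and Gm10800 on chromosome 2, had 111071 and 83769.5 PBS reads per CpG but only 14 and 15 CpGs in the reference, and 17.5 and 50% of their words had 10 or more genomic copies. The Gm10801 tile was at 72.1, 71.2 and 72.8% in PBS, 55.2, 55.2 and 56.1% in F-MTAza, 52.7, 52.9 and 48.9% in NP-MTAza and 52.5% in Aza replicate 3. Values in all 10 libraries were present for 14 of the 15, and each tile counted once in the means.

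The tiles with the highest levels after treatment remained close to PBS in most libraries. They were taken by their combination level, and their order carries no test. A tile 5562 bp from the start of Dlx2, a homeobox factor of forebrain interneurons (chr2:71379000-71379499, 32 CpGs), stood at 97.5, 94.4 and 98.3% in PBS, 91.5, 100 and 85.6% in F-MTAza, 93.6, 94.5 and 93.8% in NP-MTAza and 75.1% in Aza replicate 3. The Aza library was thus below all 9 others, though the shallowest library had 43 reads there. An exon tile of Zfp316, a zinc finger gene (chr5:144015000-144015499, 34 CpGs), with at least 235 reads in each library, was at 97.9, 99 and 96.9% in PBS, 84.5, 95.7 and 95.2% in F-MTAza, 89.7, 86.2 and 94.9% in NP-MTAza and 93.6% in Aza replicate 3. All 7 treated libraries lay under all 3 PBS libraries there. The Dact3 exon tile (chr7:17471000-17471499, 42 CpGs) was at 97.9, 99.2 and 98.8% in PBS, 95.7, 88.2 and 95.3% in F-MTAza, 92.8, 93.6 and 83.2% in NP-MTAza and 82.3% in Aza replicate 3. Others with very high combination levels lay in the promoter of Fzd10, a Wnt receptor, and in an exon of Dmrta2, a DM-domain factor, with combination means of 90.1 and 89.9%.

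The tiles with the lowest levels left began near the threshold of the rule. The Dync1i1 exon tile (chr6:5956000-5956499, 24 CpGs) went from 74.7, 73.5 and 75.5% in PBS to 50.0, 39.4 and 40.2% in F-MTAza, 37.2, 36.4 and 35.0% in NP-MTAza and 44.3% in Aza replicate 3. No treated library overlapped PBS. The Atp8b2 exon tile (chr3:89764500-89764999, 25 CpGs) was at 79.0, 68.2 and 71.6% in PBS, 65.0, 40.3 and 38.0% in F-MTAza, 42.4, 30.1 and 31.0% in NP-MTAza and 34.5% in Aza replicate 3. F-MTAza replicate 1 lay just under the PBS range there, and the other treated libraries lay far below it. The promoter tile of Smad9, a transducer of bone morphogenetic protein signals (chr3:54559500-54559999, 32 CpGs), was at 74.1, 82.2 and 73.1% in PBS, 41.3, 48.2 and 52.8% in F-MTAza, 28.3, 58.4 and 19.02% in NP-MTAza and 49.8% in Aza replicate 3, so its NP-MTAza replicates spread over most of the treated range. The other 3 were promoter tiles of Arap3, a GTPase-activating protein, of Syt1, a calcium sensor of synaptic vesicles, and of Sidt1, a transmembrane protein, with combination means of 38.7, 41.8 and 41.9%. At Arap3 the formulations did not overlap, with means of 26.3% in F-MTAza and 51.1% in NP-MTAza. Its PBS libraries were at 59.9, 84.5 and 75.5%, and Aza replicate 3 was at 52.2%.

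**Figure D4:**
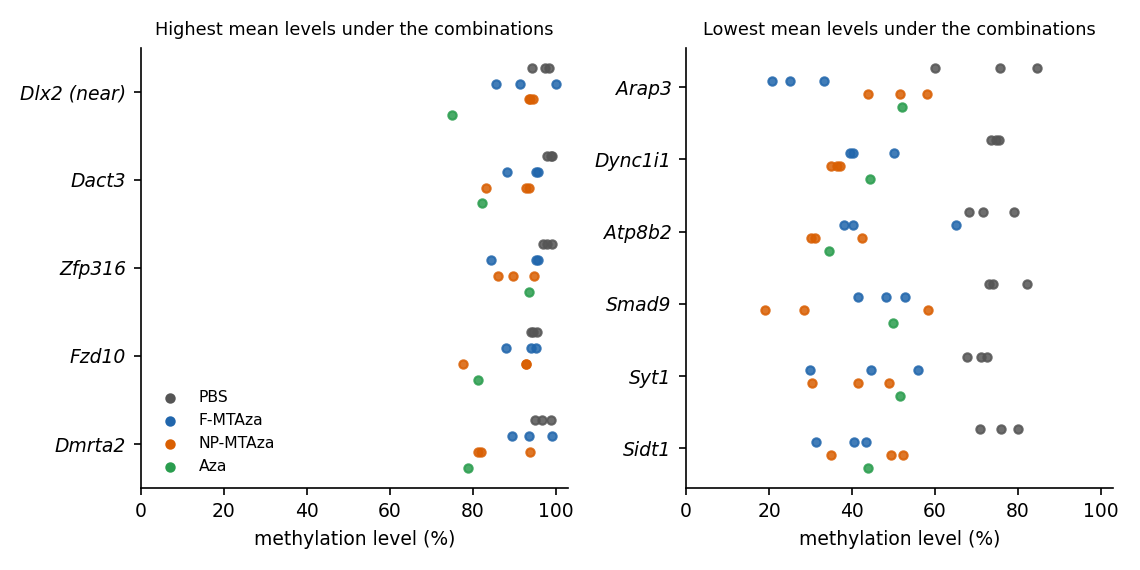
Methylation level (%) of 5 of the 6 CpG-dense methylated tiles with the highest (left) and the 6 with the lowest (right) combination level, with 1 point per library and colours for the groups. In the Zfp316 row the treated points lie between 84.5 and 95.7%, and in the Dync1i1 row between 35.0 and 50.0%.

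The tiles with the most CpGs mostly lay inside exons. An exon tile of Cilp2, a protein of cartilage matrix (chr8:72405500-72405999, 72 CpGs), was at 96.9, 98.4 and 97.2% in PBS, 81.9, 90.6 and 89.2% in F-MTAza, 93.9, 86.9 and 81.5% in NP-MTAza and 86.8% in Aza replicate 3. The Cacna1a exon tile (chr8:87083000-87083499, 72 CpGs) was at 87.7, 92.6 and 88.7% in PBS, 82.1, 76.6 and 87.5% in F-MTAza, 77.5, 76.4 and 76.3% in NP-MTAza and 79.7% in Aza replicate 3. All treated libraries were below all PBS libraries at both, by a small margin in F-MTAza replicate 3 at Cacna1a. The promoter tile of Lin28b, which blocks let-7 maturation (chr10:45205500-45205999, 69 CpGs), was at 95.7, 95.6 and 95.6% in PBS, 84.7, 84.7 and 80.2% in F-MTAza, 87.3, 88.1 and 82.5% in NP-MTAza and 89.3% in Aza replicate 3. That of Klf15, a Krüppel-like factor present in kidney (chr6:90412500-90412999, 68 CpGs), was at 79.3, 69.0 and 77.2% in PBS, 62.2, 60.5 and 72.2% in F-MTAza, 66.8, 69.3 and 71.7% in NP-MTAza and 67.3% in Aza replicate 3, so the groups overlapped. The exon tiles of Snx20, a sorting nexin (70 CpGs), and Kcns1, a modulatory potassium channel subunit (69 CpGs), had combination means of 81.5 and 81.3% against 93.8 and 95.6% in PBS.

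Packaging the 3 drugs in micelles was compared with giving them free. The mean over the tiles differed by -3.13 points between NP-MTAza and F-MTAza, and every NP-MTAza library lay under every F-MTAza library. This is the most extreme order possible, and the two-sided exact permutation test gave p = 0.1, the smallest that 3 against 3 allows (adjusted p = 0.1), so the design cannot pass 0.05. The mean was lower in NP-MTAza at 1590 tiles and higher at 804, with a median difference of -3.11 points against -0.50 points over all tiles tested. In methylated tiles with 10 to 19 CpGs the mean over the tiles differed by -2.39 points, and in those with 5 to 9 by -2.30. A shift in this direction was thus not particular to the CpG-dense tiles. No tile was called by limma in either direction, as over all tiles tested (0% called), and the quasi-binomial model also gave 0. At an unadjusted p under 0.05, 244 tiles were lower and 53 higher in NP-MTAza, which is 10.2 and 2.21% of the tiles against 5.86 and 2.41% of all tiles tested. Every NP-MTAza library was below every F-MTAza library at 246 tiles (10.3%, background 7.01%) and above at 56 (2.34%, background 3.55%). Unmethylated tiles, where no difference can be large, count in those backgrounds. Among methylated tiles with 5 to 9 CpGs the same shares were 8.66 and 2.89%.

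Tile levels in the 2 formulations followed each other, with a Spearman correlation of 0.705 across the 2394 tiles. The 6 tiles with the largest differences were chosen for them and are a description. An exon tile of Tnrc18 (chr5:143549000-143549499, 22 CpGs), which encodes a trinucleotide-repeat-containing protein, was at 93.2, 72.5 and 100% in F-MTAza and 62.9, 54.3 and 51.8% in NP-MTAza, against 93.8, 99.2 and 97.7% in PBS and 66.8% in Aza replicate 3. An exon tile of Ephb2, an ephrin receptor (chr4:136249500-136249999, 26 CpGs), was at 97.5, 82.5 and 77.4% in F-MTAza and 49.8, 61.3 and 51.9% in NP-MTAza, against 95.8, 98.6 and 99.5% in PBS and 76.9% in Aza replicate 3. F-MTAza and NP-MTAza did not overlap at either tile, while F-MTAza and PBS overlapped at both. In the other direction, the promoter tile of Neurog1, a proneural factor (chr13:56353000-56353499, 27 CpGs), was at 27.0, 46.8 and 31.2% in F-MTAza and 59.1, 71.5 and 61.6% in NP-MTAza. It was at 74.8, 92.7 and 68.2% in PBS, overlapping NP-MTAza, and at 54.9% in Aza replicate 3. An exon tile of Ppp1r16b, a regulatory subunit of protein phosphatase 1 (chr2:158521500-158521999, 24 CpGs), was at 51.7, 34.8 and 32.1% in F-MTAza and 63.3, 68.7 and 67.2% in NP-MTAza. Its PBS libraries were at 89.4, 86.1 and 84.3%, and Aza replicate 3 was at 65.2%. Intergenic tiles nearest to Tmbim6 and 0610010O12Rik were 28.0 and 27.8 points higher in NP-MTAza, and 18.3 and 17.4 points higher without F-MTAza replicate 1. The shallowest library had 30 to 80 reads at these 6 tiles, and none of the 6 passed the adjustment over all tiles.

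Aza without the other drugs was represented by 1 library. Its mean of 64.7% differed by -2.92 points from the mean of the combination libraries and stood next to the 64.9% of NP-MTAza replicate 3. The same difference was -2.54 points in methylated tiles with 10 to 19 CpGs and -2.62 in those with 5 to 9. With reads pooled over tiles in place of tile means the difference was 0.69 points in the other direction, and without the 14 tiles of over 50 PBS reads per CpG it was -2.80 points. It was lower than the combination mean at 1484 tiles and higher at 910, with a median difference of -2.80 points against -0.50 over all tiles tested. Limma, which took the spread of this library from the other groups, called 0 tiles (background 0%), and 139 were lower and 28 higher at an unadjusted p under 0.05, or 5.81 and 1.17% against 3.62 and 1.24% of all tiles tested. The quasi-binomial model called 0 as well. Tile levels in Aza replicate 3 had a Spearman correlation of 0.657 with the combination level.

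Gene by gene, a methylated dense promoter was the exception. Of 7051 genes with a CpG-dense tile in the promoter, 896 (12.7%) had at least 1 methylated one. In 772 genes (10.9%) all CpG-dense promoter tiles were methylated. The lists below also count a gene with at least 1 such tile. The PBS levels that chose the tiles fix these counts, so the lists below are described without a test. Counts of tiles called lower than in PBS are set beside the 91.9% of all CpG-dense methylated tiles that were called lower. Over all tiles tested 69.2% were called lower, but these include tiles with less methylation to lose. Levels are set beside a median combination level of 68.2% over all CpG-dense methylated tiles.

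Germline genes are held silent in body cells by promoter methylation. Of 21 listed germline genes with a CpG-dense promoter tile, 19 (90.5%) had a methylated one, giving 24 tiles. All 19 tiles with values in every library were called lower than in PBS (91.9% of all such tiles), and their combination means ran from 56.6 to 85.2% with a median of 73.1%. The Dazl tile (chr17:50432500-50432999, 36 CpGs) was at 89.0, 89.1 and 92.7% in PBS, 71.0, 71.5 and 77.4% in F-MTAza, 76.4, 86.6 and 65.2% in NP-MTAza and 76.5% in Aza replicate 3. All treated libraries lay below PBS there, and NP-MTAza replicate 2 came closest. The tile of Smc1b, a meiotic cohesin subunit (chr15:84962000-84962499, 39 CpGs), whose promoter it shares with Ribc2, was at 83.5, 87.4 and 86.0% in PBS, 58.4, 72.3 and 60.3% in F-MTAza, 65.0, 67.5 and 51.5% in NP-MTAza and 65.1% in Aza replicate 3. That of Rpl10l, a ribosomal protein of the testis (chr12:67385000-67385499, 34 CpGs), was at 93.7, 95.9 and 96.3% in PBS, 75.9, 75.2 and 66.7% in F-MTAza, 69.7, 70.9 and 80.4% in NP-MTAza and 80% in Aza replicate 3. Fkbp6, a co-chaperone of male meiosis, went from a mean of 89.8% to 66.4% in F-MTAza and 63.3% in NP-MTAza. Single libraries went lower, to 25% in NP-MTAza replicate 1 at another Dazl tile (chr17:50432000-50432499), which lacked values in 2 libraries, and to 38.6% in NP-MTAza replicate 2 at a tile of Slc25a31, an ADP/ATP carrier of the testis. Neither formulation was lower throughout, with the NP-MTAza mean below that of F-MTAza at 10 of 19 tiles.

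Kidney development regulators are transcription factors and signals that pattern the nephron. Of 25 with a CpG-dense promoter tile, 10 (40%) had a methylated one, and 17 of their 17 tiles were called lower than in PBS (91.9% of all such tiles), with a median combination level of 70.6% (59.2 to 83.8%). The Wt1 tile (chr2:104967000-104967499, 55 CpGs) was at 96.1, 96.0 and 95.9% in PBS, 91.0, 92.1 and 84.2% in F-MTAza, 70.4, 83.7 and 81.5% in NP-MTAza and 81.8% in Aza replicate 3. Each NP-MTAza library was below each F-MTAza library at this tile. At the tile of Six2, which maintains nephron progenitors (chr17:86087000-86087499, 41 CpGs), the order was the opposite, with 97.8, 98.1 and 95.8% in PBS, 79.4, 78.7 and 74.2% in F-MTAza, 84.2, 96.0 and 81.9% in NP-MTAza and 81.7% in Aza replicate 3. Lhx1, a homeobox factor of the early nephron, had 3 methylated promoter tiles, the densest (39 CpGs) at a mean of 77.5% in PBS, 64.7% in F-MTAza and 56.3% in NP-MTAza. Sall1, a zinc finger factor of kidney development, went from 91.4 to 72.7 and 70.02%. Foxc2, Foxd1, Hoxa11, Irx3 and Lmx1b also had methylated promoter tiles. A methylated one was found for 0 of 7 proximal tubule marker genes and 0 of 1 marker gene of other kidney cell types with a CpG-dense promoter tile, against 12.7% of all genes, and lists this short do not show a difference from that share.

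Control regions of imprinted genes are normally methylated on 1 parental copy, which gives a level near the middle. Promoter tiles of these genes need not lie in such regions. Of 16 imprinted genes with a CpG-dense promoter tile, 8 (50%) had one that passed the 70% threshold: Dio3, Gnas, Nnat, Peg12, Phlda2, Plagl1, Rasgrf1 and Zdbf2. Of their 11 tiles, 9 had values throughout, and 7 of the 9 were called lower than in PBS (91.9% of all such tiles), with a median combination level of 73.5% (53.6 to 86.6%). The tile of Dio3, a deiodinase that inactivates thyroid hormone (chr12:111517000-111517499, 32 CpGs), was at 96.2, 97.0 and 95.2% in PBS, 92.3, 83.5 and 84.6% in F-MTAza, 70.2, 65.4 and 75% in NP-MTAza and 87.7% in Aza replicate 3. That of Nnat, a small membrane protein (chr2:157385500-157385999, 31 CpGs), was at 95.2, 97.3 and 95.3% in PBS, 89.8, 86.2 and 79.3% in F-MTAza, 77.5, 81.3 and 65.8% in NP-MTAza and 75.5% in Aza replicate 3. At Dio3 the formulations did not overlap, and at Nnat they did. Phlda2, an inhibitor of placental growth, had a tile (44 CpGs) at 71.7, 77.0 and 68.1% in PBS and at 51.5, 48.3 and 74.0% in F-MTAza, where replicate 3 fell within the PBS range, and Rasgrf1, a Ras exchange factor, went from a mean of 81.7% to 54.5% in F-MTAza and 58.4% in NP-MTAza.

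**Figure D5:**
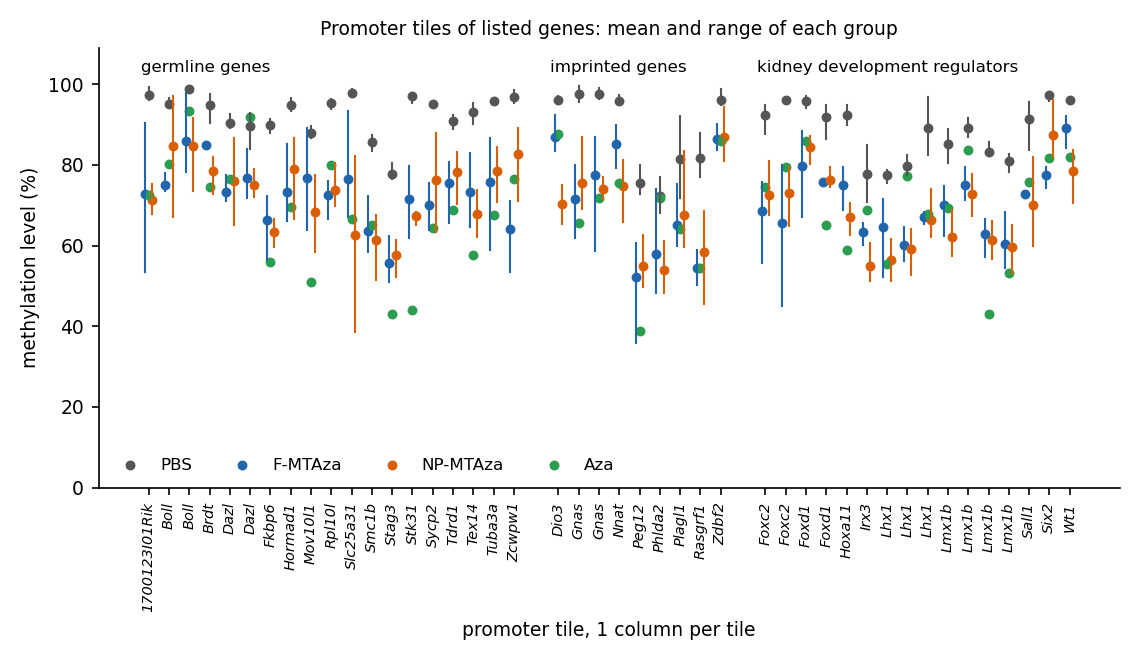
Mean and range of the methylation level (%) in each group for methylated CpG-dense promoter tiles of germline genes, imprinted genes and kidney development regulators, with 1 column per tile shown (points, means; lines, lowest to highest library; Aza, replicate 3 alone). The germline columns stand between 56.6 and 85.2% on average over the combination libraries, and those of kidney development regulators between 59.2 and 83.8%.

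Hox genes set position along the body axis. Of 19 with a CpG-dense promoter tile, 7 (36.8%) had a methylated one, and 6 of their 7 tiles were called lower than in PBS (91.9% of all such tiles), with a median combination level of 60.7% (57.7 to 77.9%). The Hoxd13 tile (chr2:74506500-74506999, 56 CpGs) was at 83.9, 76.2 and 79.7% in PBS, 69.2, 57.6 and 73.2% in F-MTAza, 44.4, 53.5 and 48.4% in NP-MTAza and 64.2% in Aza replicate 3. The NP-MTAza libraries were below all others at this tile. Hoxd1 kept more, with a mean of 88.2% in PBS, 79.6% in F-MTAza and 76.2% in NP-MTAza. Hoxa13 and Hoxc13 had combination means of 60.6 and 66.5%, and Hoxa11, Hoxb1 and Hoxc12 completed the list.

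Few promoters of zinc finger genes, most of which encode DNA-binding repressors, were methylated at dense tiles. Of 97 with a CpG-dense promoter tile, 7 (7.22%) had a methylated one, and all 7 tiles were called lower than in PBS (91.9% of all such tiles), with a median combination level of 66.1%. The tile shared by Zfp617 and Zfp882 (33 CpGs) went from a mean of 87.7% to 67.1% in F-MTAza and 64.3% in NP-MTAza, and Zfp583 from 89.2 to 65.0 and 69.7%. Zfp503 (29 CpGs) had means of 79.4, 59.0 and 54.3% in the same order. At Zfp612 the F-MTAza replicates were far apart, at 85.9, 86.6 and 47.6%, against 86.6, 92.6 and 82.8% in PBS and 53.4, 68.1 and 54.9% in NP-MTAza.

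Among tumour suppressors known to be silenced by methylation in cancer, 5 of 16 (31.2%) had a methylated dense promoter tile, and 3 of 4 tiles with all values were called lower than in PBS (91.9% of all such tiles). The tile of Cdh1, which encodes E-cadherin (chr8:109127500-109127999, 32 CpGs), was at 87.7, 92.4 and 85.6% in PBS, 78.7, 72.2 and 76.5% in F-MTAza, 75.5, 80.5 and 70.1% in NP-MTAza and 67.3% in Aza replicate 3. That of Sfrp2, a secreted Wnt inhibitor (chr3:83570500-83570999, 30 CpGs), was at 78.6, 82.0 and 79.8% in PBS, 58.9, 58.2 and 68.8% in F-MTAza, 64.4, 57.4 and 66.5% in NP-MTAza and 52.5% in Aza replicate 3. In both, Aza replicate 3 was the lowest library. Gata5, a GATA factor, went from a mean of 83.0% to 62.2 and 61.7%, and Dapk1, a kinase of cell death, from 78.2 to 63.6 and 66.7%, with PBS replicate 2 at 65.5% there. Rassf1, a regulator of Ras signals, lacked values in part of the libraries. Clustered protocadherins, adhesion proteins with stochastic promoter choice, had no CpG-dense promoter tile that passed the read rule, and 28 methylated tiles lay in the bodies of 4 of them. In none of the lists was a tile called between NP-MTAza and F-MTAza.

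Just inside the threshold stood tiles near Mafa at a pooled PBS level of 70% and in the promoters of Dyx1c1, Slc16a14, Nkx3-2 and Ttbk1 at 70.01 to 70.02%. Just outside were tiles of Nfic at 69.99%, Clic6 at 69.90%, and Kdm2a, Gnal and Lrp3 at 69.89%. The combination means of the members just inside with all values were 58.4% near Mafa, 61.4% at Dyx1c1 and 48.8% at Nkx3-2, and those just outside were 43.5% at Nfic, 61.5% at Clic6, 54.3% at Kdm2a, 52.1% at Gnal and 63.2% at Lrp3. The threshold therefore cut through a continuous range of tiles.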

How the data were processed

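Methylation was measured by RRBS in 12 libraries, 10 of which are used here. Adapters were removed by the authors with Trim Galore 0.4.4, alignment to mm9 used Bowtie2 within Bismark 0.20.1, and CpGs, with their strands joined, were listed from 5 reads upward. The deposited values are a percent of methylated reads per CpG, rounded down, beside the methylated and total read numbers. Levels were computed from those read numbers, summed over the CpGs of a tile that met the rule.

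A tile needed 5 listed CpGs in a library to have a value there. Places came from GENCODE vM1 on mm9, with protein-coding genes only. Retained shares were compared by exact sign-flip permutation over the 6 combination libraries, group means by exact permutation, and single tiles by limma on arcsine square root levels in a model of 4 groups, with Benjamini-Hochberg adjustment over all 37154 tiles. The scripts were tested on simulated data. The members and gene lists were chosen with earlier results of these data known. Tiles named in the text were the 6 with the highest and the 6 with the lowest combination level, the 6 with the most CpGs, the 6 with the largest difference between NP-MTAza and F-MTAza, the 5 on either side of the threshold, and up to 4 promoter tiles of each list with the most CpGs. The deepest tiles and the longest run were named after their values were seen. Sequences were read from the mm9 reference. Results for some single genes and tiles are not reported here.

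Depth was 25336747 to 65817118 reads per library, and intervals are Wilson intervals at 95%. Alternatives changed the read and CpG minimums, the weighting of reads, the scale and model of the test, the difference required, the choice of PBS libraries and the libraries used. Tools were R 4.3.3 with limma 3.58.1, and Python 3.11.15 with pysam 0.24.0, numba 0.67.0, matplotlib 3.10.9, pandas 2.3.3, scipy 1.17.1 and numpy 2.4.6.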

Additional observations from a re-analysis of the deposited data

How the results depend on the processing

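Of 182 alternative values for the comparisons, 150 were rated the same, 9 moved, 21 lost the call and 2 turned. Size entered this rating only for counts and for the differences of the combination from PBS and of Aza replicate 3 from the combination. Retained shares and NP-MTAza against F-MTAza were rated by direction and p under 0.05 alone. The difference between CpG-dense and CpG-poor tiles thus rated the same with pooled reads, though it fell from 10.4 to 2.71 points. Of 570 for named tiles, 567 were the same, 3 moved and 0 turned. Pooling reads over tiles turned the difference between Aza replicate 3 and the combination (0.693 points) and that between promoter and other tiles (-4.77 points, exact p = 0.031). Without tiles over 50 PBS reads per CpG, an alternative chosen after seeing the data, the values were -2.80 and 3.15. The difference between combination and PBS was -23.5 points with pooled reads, -19.6 at 10 reads per CpG, and -19.2 and -19.0 with tiles chosen without PBS replicate 1 or 3. The number of tiles was 985 at 30 or more CpGs, 1182 at 10 reads per CpG, and 1377 to 2559 with 1 PBS library left out (1385 without replicate 1, 1377 without replicate 3). At a minimum difference of 20 points, 1263 tiles were called lower than in PBS.

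Leaving out 1 library of any group gave differences in retained share of 10.1 to 10.6 points for CpG-dense against CpG-poor tiles, 6.23 to 6.50 by CpG number and 3.06 to 3.32 for promoters. The exact p stayed at 0.031 without a PBS library and was 0.0625 without a combination library, the smallest that 5 libraries allow. For promoters the exact p does not test the PBS difference by which all combination libraries were divided. Choosing both classes from 2 PBS libraries and taking shares of the third, added after seeing the data, changed no call. NP-MTAza replicates 1 and 2 carried 2 barcode sets. In the 4 libraries with 1 barcode set they were 10.6, 6.22 and 3.07 points (exact p = 0.125, the smallest possible). Leaving out 1 library gave -21.3 to -20.4 points for combination against PBS, -3.46 to -2.56 for NP-MTAza against F-MTAza, -3.43 to -2.56 for Aza replicate 3 against the combination, and 1996 to 2333 tiles called lower than in PBS. With 1 barcode set NP-MTAza differed from F-MTAza by -4.26 points, but NP-MTAza then rested on replicate 3 alone, its lowest library. Replicate numbers did not pair the libraries, since deviations of libraries with the same number correlated at -0.0175 to 0.00796. With the replicate block, NP-MTAza against F-MTAza stayed at -3.13 points (exact p = 0.25), and the calls were 2199 against PBS and 0 in the other comparisons.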
